A study of Rattus norvegicus with 12 samples.

Results

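The mitochondrial carriers of the Slc25 family were described in rat heart after myocardial infarction and treatment with urolithin A (UA), a compound that gut microbes make from dietary ellagitannins and that is known to promote the clearance of damaged mitochondria. The members are all genes of the deposited count table whose symbol is Slc25a followed by a number, 43 of the 30560 genes listed. The study used male Wistar rats that were 7 weeks old at surgery. Sham rats had the chest opened without ligation and received the vehicle, 0.5% carboxymethylcellulose. MI rats had permanent ligation of the left anterior descending coronary artery and received the same vehicle, and MI + UA rats had the ligation and received UA by oral gavage as a 50 mg/ml preparation. Per the series' description dosing was daily for 8 weeks from the day after surgery, so all 12 rats were gavaged and the groups carry no genetic change. The study's methods give the same start and preparation. Its results section instead starts treatment later, once infarcted rats had been allotted by ejection fraction, and states the dose by body weight. The start and the dose are therefore uncertain here. The ligation was placed to give infarcts near 40% of the left ventricle, and per the study's methods rats with small infarcts were dropped after echocardiography.

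RNA was taken from formalin-fixed, paraffin-embedded blocks of the middle region of the left ventricle, and the sources used here do not say that infarcted and surviving muscle were separated. Each group had 4 rats with 1 library each, rats 12, 17, 32 and 38 in Sham, rats 36, 57, 61 and 89 in MI, and rats 29, 58, 64 and 66 in MI + UA. Values for single rats follow this order throughout. The label of rat 66 places it in MI + UA, but the rat stands among the vehicle-treated infarcted rats in the study's echocardiography table. It was counted by its label. The libraries held 6228706 to 19031695 reads on genes, of which 8594 to 25300 fell on the 43 carriers. Levels are given as CPM, which are counts scaled by TMM to a common library size. CPM is not corrected for transcript length, so it orders genes by their reads and not by their transcript level.

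Carriers of this family sit mainly in the inner mitochondrial membrane and pass metabolites that the membrane would otherwise hold back. They exchange ADP for ATP, move phosphate, bring acylcarnitines in for fat oxidation, run the malate-aspartate shuttle that hands cytosolic reducing power to the matrix, and import cofactors such as coenzyme A, glutathione and iron. Heart muscle relies on them because most of its ATP is made by mitochondria and spent in the cytosol. Some members sit elsewhere, such as Slc25a17 in peroxisomes and Slc25a46 in the outer membrane.

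Of the 43 members, 37 had at least 10 counts over the 12 libraries and were tested, as were 18182 genes in all. Slc25a2 and Slc25a48 had 0 counts, which with 121502354 reads on genes allows up to 0.0247 CPM. Slc25a6, Slc25a31 (the testis form of the ADP/ATP carrier) and Slc25a54 had 1 count each and Slc25a41 had 5. Slc25a3, the main phosphate carrier, has no row under that symbol and was not analysed here, and the same holds for Slc25a14, Slc25a16, Slc25a34 and Slc25a43. The table lists Slc25a51 under its older symbol Mcart1, outside the rule.

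The starts of 4 carriers are shown because they frame the results: Slc25a4 and Slc25a20, which fell after infarction, Slc25a24, which rose, and Slc25a5, the paralog of Slc25a4 for which no change was called. Each line gives the 250 bases before the transcription start in RefSeq's GRCr8 assembly, 5′ to 3′ on the gene's own strand, with matches to 2 motifs in capitals. The first, CCGGAAG, is recognised by ETS factors such as GABP. The second is a TATA-type box with the letters TATAAG.
Slc25a4, chr16:52805271-52805520, plus strand: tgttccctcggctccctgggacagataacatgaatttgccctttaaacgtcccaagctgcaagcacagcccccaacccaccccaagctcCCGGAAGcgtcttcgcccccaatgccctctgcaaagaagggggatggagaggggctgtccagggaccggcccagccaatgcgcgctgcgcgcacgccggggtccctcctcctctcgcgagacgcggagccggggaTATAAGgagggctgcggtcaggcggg
Slc25a5, chrX:120897366-120897615, plus strand: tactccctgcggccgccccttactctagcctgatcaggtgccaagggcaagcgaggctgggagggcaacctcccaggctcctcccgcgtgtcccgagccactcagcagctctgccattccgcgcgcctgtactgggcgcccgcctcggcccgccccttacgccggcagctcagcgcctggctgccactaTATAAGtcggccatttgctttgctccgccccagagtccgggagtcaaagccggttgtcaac
Slc25a20, chr8:118243323-118243572, plus strand: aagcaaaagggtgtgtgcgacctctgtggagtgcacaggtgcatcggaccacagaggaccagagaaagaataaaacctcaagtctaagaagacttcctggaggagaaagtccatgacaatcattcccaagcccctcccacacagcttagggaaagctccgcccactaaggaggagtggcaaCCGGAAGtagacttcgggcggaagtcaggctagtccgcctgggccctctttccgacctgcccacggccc
Slc25a24, chr2:199449175-199449424, plus strand: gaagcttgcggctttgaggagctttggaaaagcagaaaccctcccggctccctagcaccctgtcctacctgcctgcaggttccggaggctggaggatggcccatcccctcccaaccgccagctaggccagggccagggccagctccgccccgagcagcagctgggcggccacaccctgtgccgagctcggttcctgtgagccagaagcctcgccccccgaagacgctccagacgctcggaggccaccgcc
CCGGAAG lay 161 to 155 bases before the start of Slc25a4 and 69 to 63 bases before that of Slc25a20, and was not in the windows of the other 2. These 4 were chosen by their results. No other carrier that fell after infarction had a match, although some members have no window. On either strand CCGGAAG was found in 4 of the 35 members with a RefSeq window (Slc25a4, Slc25a20, Slc25a38 and Slc25a54), against 7.27% of all 33469 windows. Here and below a member counts if any of its windows held the motif, while the shares count windows, so the 2 are unlike measures. TATAAG lay 26 to 21 bases before the start of Slc25a4 and 61 to 56 bases before that of Slc25a5, the only members that held it, against 7.01% of all windows. AAGGTCA, a core recognised by estrogen-related receptors, was in 0 of the 35 members and in 3.99% of all windows. GCATGCGC, a core recognised by NRF-1, was in 2 of the 35 (Slc25a13 and Slc25a31) and in 2.2% of all, and TGACGTCA, the cyclic AMP response element, in 2 (Slc25a25 and Slc25a33) and in 1.59%. These are matches of letters in a newer assembly than the one the reads were mapped to (mRatBN7.2), and no binding was measured.

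The first comparison, MI against Sham, asked how the carriers stood 8 weeks after infarction. In edgeR's quasi-likelihood test, 9 of the 37 tested carriers were lower in MI at an adjusted p under 0.05 and 1 was higher. Over all genes tested 5.53% were lower and 5.82% higher. Slc25a4, Slc25a11, Slc25a12, Slc25a13, Slc25a20, Slc25a22, Slc25a23, Slc25a39 and Slc25a42 fell. Slc25a39 fell by 22.0% and Slc25a42 fell by 33.4%, the least and the most of the 9, and Slc25a24 rose by 68.9%. The median log2 fold change of the 37 carriers was -0.25, against 0.03 over all genes, and 28 of them lay below 0. The 4 MI rats did not overlap the 4 Sham rats at 11 carriers, 10 lower and 1 higher, while this was so for 15.7% of all genes. Of the 11, 9 have an average log2 CPM of at least 5, where 32.6% of genes did not overlap.

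**Figure D1:**
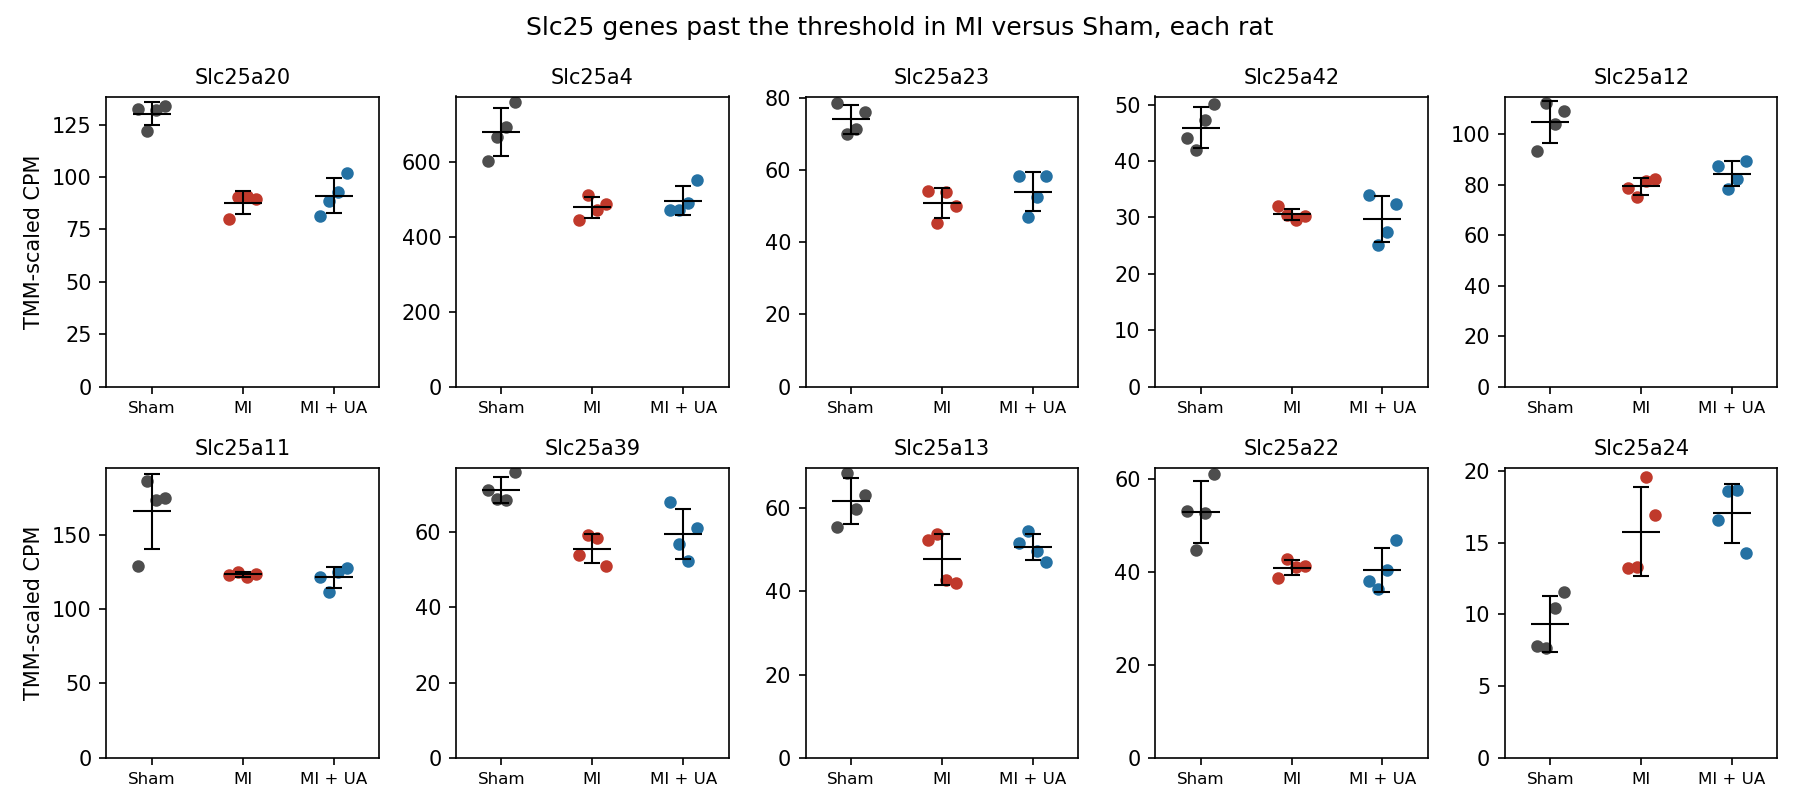
TMM-scaled CPM (y axis, from 0) of the 10 Slc25 genes with an adjusted p under 0.05 in MI versus Sham, with 1 point per rat, a bar at the group mean and whiskers of 1 SD (n = 4). In 9 panels all Sham rats lie above all MI rats, in the Slc25a24 panel all lie below, and in every panel the MI + UA mean lies closer to the MI mean than to the Sham mean.

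The falls were found among the carriers with many reads. Of the 12 carriers with an average log2 CPM of at least 5, 9 were lower and 0 higher, where 18.7% of the 3098 genes at that level were lower and 8.52% higher. Of the 25 carriers below it, 0 were lower and 1 was higher, where the shares of the 15084 genes there were 2.83% and 5.26%. Precision differed between these ranges: the standard error of the log2 fold change had a median of 0.10 above this level and of 0.23 below it, and what could be detected in carriers with few reads was not tested.

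The ADP/ATP carriers export the ATP that mitochondria make. Slc25a4 (ENSRNOG00000010830), the form typical of heart and skeletal muscle, measured 602, 667, 692 and 758 CPM in the Sham rats, 445, 510, 470 and 487 CPM in the MI rats and 470, 472, 489 and 552 CPM in the MI + UA rats. All 8 infarcted rats lay below the lowest Sham rat. The change from Sham to MI was -0.51 on the log2 scale (standard error 0.08, edgeR adjusted p = 0.000429).

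Slc25a5 (ENSRNOG00000039980), the more widely expressed ADP/ATP carrier, measured 35.0, 41.0, 48.5 and 43.2 CPM in Sham, 34.7, 35.1, 36.8 and 34.5 CPM in MI and 42.3, 37.4, 45.3 and 36.01 CPM in MI + UA. The groups overlapped, since Sham rat 12 lay within the MI range. The difference of -0.25 on the log2 scale (standard error 0.10) had an edgeR adjusted p of 0.142, which became 0.0475 without Sham rat 12. RefSeq lists 9 Slc25a5 pseudogenes and 8 of Slc25a39, so reads shared with such copies may have been left out of the counts or placed on them, and the values of both genes are uncertain to that extent.

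The ratio of Slc25a4 to Slc25a5 counts within a library does not depend on the scaling between libraries. It was 17.1, 16.2, 14.2 and 17.5 in Sham, 12.8, 14.5, 12.7 and 14.1 in MI and 11.1, 12.6, 10.8 and 15.3 in MI + UA. On the log2 scale its mean was 4.02 ± 0.13 (SD, n = 4), 3.75 ± 0.10 and 3.62 ± 0.23. MI and Sham overlapped by 1 pair of rats, and the difference of -0.27 had a two-sided exact permutation p of 0.0571 (0.257 adjusted over the 9 ratio tests, where 0.0286 is the smallest p that 4 rats against 4 allow). Slc25a12 to Slc25a13, the aspartate/glutamate carriers, had mean log2 ratios of 0.76 ± 0.04, 0.74 ± 0.24 and 0.74 ± 0.16 (exact permutation p = 0.886 for MI versus Sham). Slc25a37 to Slc25a28, the mitoferrins that bring in iron, had means of -1.13 ± 0.53, -0.92 ± 0.25 and -0.51 ± 0.38 (exact permutation p = 0.514). Without rat 66 the difference in the Slc25a4 to Slc25a5 ratio between MI + UA and MI went from -0.13 to -0.24 on the log2 scale. The 3 remaining MI + UA rats, at most 12.6, then lay below all MI rats, at least 12.7, and the exact permutation p adjusted over the ratio tests was 0.129. With all rats, none of the 9 ratio tests had an adjusted p under 0.05, and the smallest adjusted p was 0.257. A single test at the smallest p that these group sizes allow could not pass after adjustment over 9 tests. This outcome was therefore nearly fixed in advance and does not show equal ratios.

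**Figure D2:**
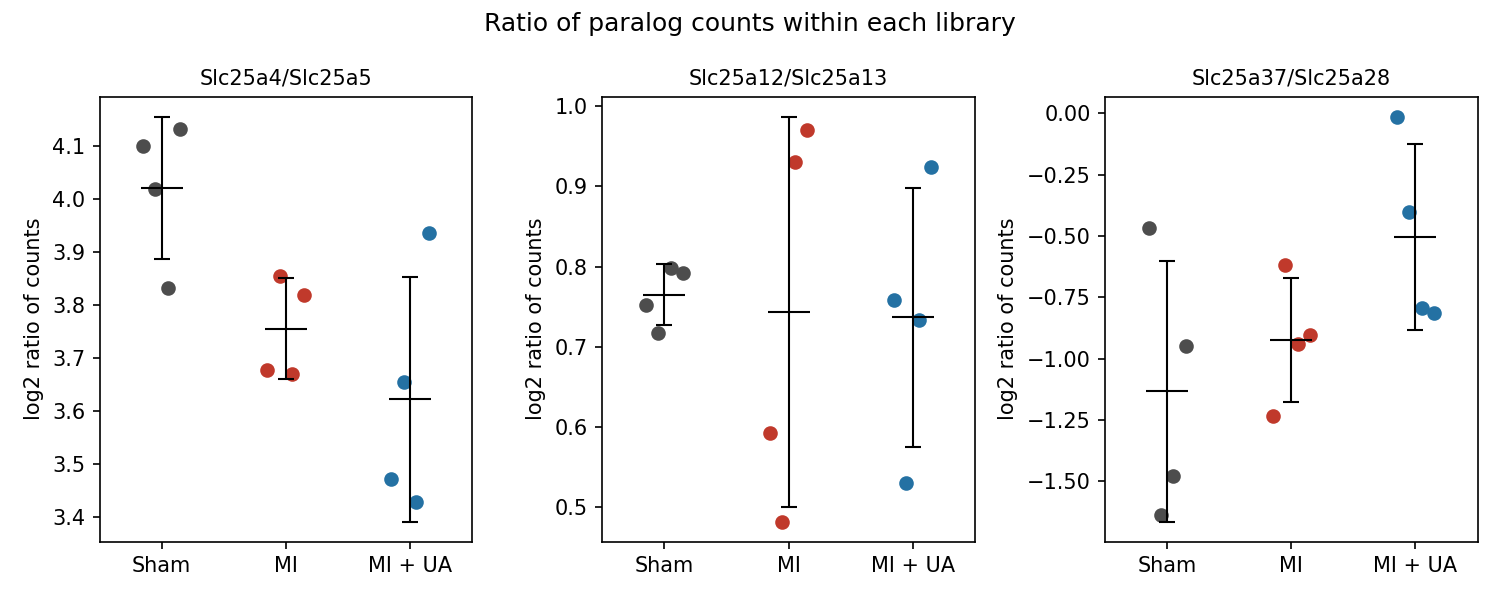
Log2 ratio of the counts of 2 related carriers within each library (y axis, own range in each panel), with 1 point per rat, the group mean and whiskers of 1 SD (n = 4). The Slc25a4 to Slc25a5 ratio is highest in Sham, with 1 Sham rat inside the MI range, and the Slc25a12 to Slc25a13 ratio has close means but a wider spread in both infarcted groups than in Sham.

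The ATP-Mg/phosphate carriers, which calcium switches on and which set the adenine nucleotide content of the matrix, held a fall and a rise. Slc25a23 measured 78.7, 69.9, 71.4 and 76.1 CPM in Sham, 54.2, 45.3, 54.0 and 50.1 CPM in MI and 58.4, 47.0, 52.4 and 58.3 CPM in MI + UA. The change from Sham to MI was -0.54 on the log2 scale (standard error 0.09, edgeR adjusted p = 0.000530). Slc25a24 (ENSRNOG00000020470) went the other way, with 7.78, 7.65, 10.4 and 11.6 CPM in Sham, 13.2, 13.3, 19.6 and 16.9 CPM in MI and 16.6, 18.6, 18.7 and 14.3 CPM in MI + UA. The highest Sham rat lay below every infarcted rat. Its log2 fold change was 0.76 (standard error 0.16, edgeR adjusted p = 0.00392), and it had an adjusted p under 0.05 in each of the 8 fits that left out 1 Sham or MI rat. Slc25a25, the third member tested here, had a log2 fold change of -0.21 that was not called.

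Slc25a20 (ENSRNOG00000020288), which exchanges acylcarnitines for carnitine across the inner membrane, had the smallest p of all carriers. It measured 133, 122, 132 and 134 CPM in Sham, 79.9, 90.6, 91.0 and 89.7 CPM in MI and 81.5, 88.4, 93.0 and 102 CPM in MI + UA. The lowest Sham rat stood well above the highest infarcted rat. The difference of MI from Sham was -0.57 on the log2 scale (standard error 0.08, edgeR adjusted p = 0.000126). The enzymes on either side of this carrier were all lower too: Cpt1b (-0.57) and Cpt1a (-0.51), which form acylcarnitine outside, and Cpt2 (-0.75), which turns it back into acyl-CoA inside, and Crat (-0.70), which acts on short chains.

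In the malate-aspartate shuttle the carriers and the enzymes fell. Slc25a11 (ENSRNOG00000003815), the 2-oxoglutarate/malate carrier, measured 129, 186, 173 and 175 CPM in Sham, 123, 125, 122 and 124 CPM in MI and 122, 112, 125 and 128 CPM in MI + UA. Sham rat 12 came close to the infarcted rats, and the log2 fold change was -0.43 (standard error 0.10, edgeR adjusted p = 0.00493). Slc25a12 measured 93.5, 112, 104 and 109 CPM in Sham, 78.9, 75.0, 81.4 and 82.5 CPM in MI and 87.2, 78.5, 82.4 and 89.5 CPM in MI + UA. MI lay -0.40 from Sham on the log2 scale (standard error 0.08, edgeR adjusted p = 0.00241). Slc25a13, its paralog, measured 55.4, 68.3, 59.8 and 63.1 CPM in Sham, 52.3, 53.6, 42.7 and 42.0 CPM in MI and 51.5, 54.3, 49.5 and 47.1 CPM in MI + UA. MI rats 36 and 57 lay just under the lowest Sham rat. The difference of -0.37 on the log2 scale (standard error 0.10, edgeR adjusted p = 0.0156) lost the threshold without Sham rat 17 (adjusted p = 0.0627), MI rat 61 (0.0631) or MI rat 89 (0.0673). The shuttle's enzymes Got1, Got2, Mdh1 and Mdh2 had log2 fold changes from -0.48 to -0.59, each called.

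The other carriers of di- and tricarboxylates were not called. Slc25a21, the oxodicarboxylate carrier, had the lowest log2 fold change of the tested carriers, -0.81, and its groups did not overlap (2.19 to 3.89 CPM in Sham and 1.55 to 1.83 CPM in MI), but its edgeR adjusted p was 0.065. Where genes were kept by edgeR's filterByExpr, it was called as lower too, making 10 lower carriers (edgeR adjusted p = 0.0495). Slc25a1, the citrate carrier, lay at 0.52 with an adjusted p of 0.262, and Slc25a10, the dicarboxylate carrier, at -0.22.

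Of the 8 tested amino acid carriers, 3 were lower and 0 higher, Slc25a12, Slc25a13 and the glutamate carrier Slc25a22 (-0.37, edgeR adjusted p = 0.0198). All 3 have an average log2 CPM of at least 5, where 18.7% of all genes were lower, against 5.53% of genes at any level. The call for Slc25a22 was lost without Sham rat 38 (adjusted p = 0.0967) or MI rat 36 (0.0539). The branched-chain amino acid carrier Slc25a44, the ornithine carrier Slc25a15 and the glycine carrier Slc25a38 lay at -0.13, -0.24 and -0.30 without a call, and Slc25a29 at 0.09.

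Of the 10 tested carriers of cofactors and nucleotides, 2 were lower, where 5.53% of all genes and 18.7% of those at the level of both carriers (an average log2 CPM of at least 5) were. Slc25a42, which carries coenzyme A, measured 44.2, 42.0, 47.3 and 50.2 CPM in Sham, 31.9, 30.4, 29.5 and 30.3 CPM in MI and 33.9, 25.2, 27.3 and 32.4 CPM in MI + UA. Its fall, -0.59 on the log2 scale (standard error 0.10, edgeR adjusted p = 0.000582), was the largest among the called carriers. Slc25a39, which carries glutathione, measured 71.3, 68.8, 68.5 and 75.8 CPM in Sham, 53.8, 59.3, 58.3 and 50.9 CPM in MI and 67.9, 56.9, 52.2 and 61.2 CPM in MI + UA. MI + UA rat 29 came closest to the Sham range. The difference of MI from Sham was -0.36 on the log2 scale (standard error 0.09, edgeR adjusted p = 0.0119), while its paralog Slc25a40 lay at 0.12. The pyrimidine nucleotide carriers Slc25a36 and Slc25a33, the folate carrier Slc25a32 and the S-adenosylmethionine carrier Slc25a26 had log2 fold changes from -0.46 to -0.16, none called. Slc25a17 lay at -0.05, and Mcart1, the NAD carrier outside the rule, at -0.02 (edgeR adjusted p = 0.917); the latter was chosen after its values were seen.

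Both mitoferrins, both relatives of the uncoupling proteins and the 5 remaining tested carriers were not called. Slc25a30 and Slc25a27, the relatives of the uncoupling proteins, lay at 0.21 and 0.47 on the log2 scale. Family members with other symbols gave 2 falls among 4 tested genes: Ucp3, the muscle uncoupling protein, with -0.65 (edgeR adjusted p = 0.0182), and Mtch2, an outer membrane protein, with -0.38 (0.00265). Over all genes 5.53% were lower, and 18.7% of those with an average log2 CPM of at least 5, as Mtch2 has. Ucp2 lay at 0.23 and Mtch1 at -0.07 without a call, and Ucp1 had 6 counts in all.

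**Figure D3:**
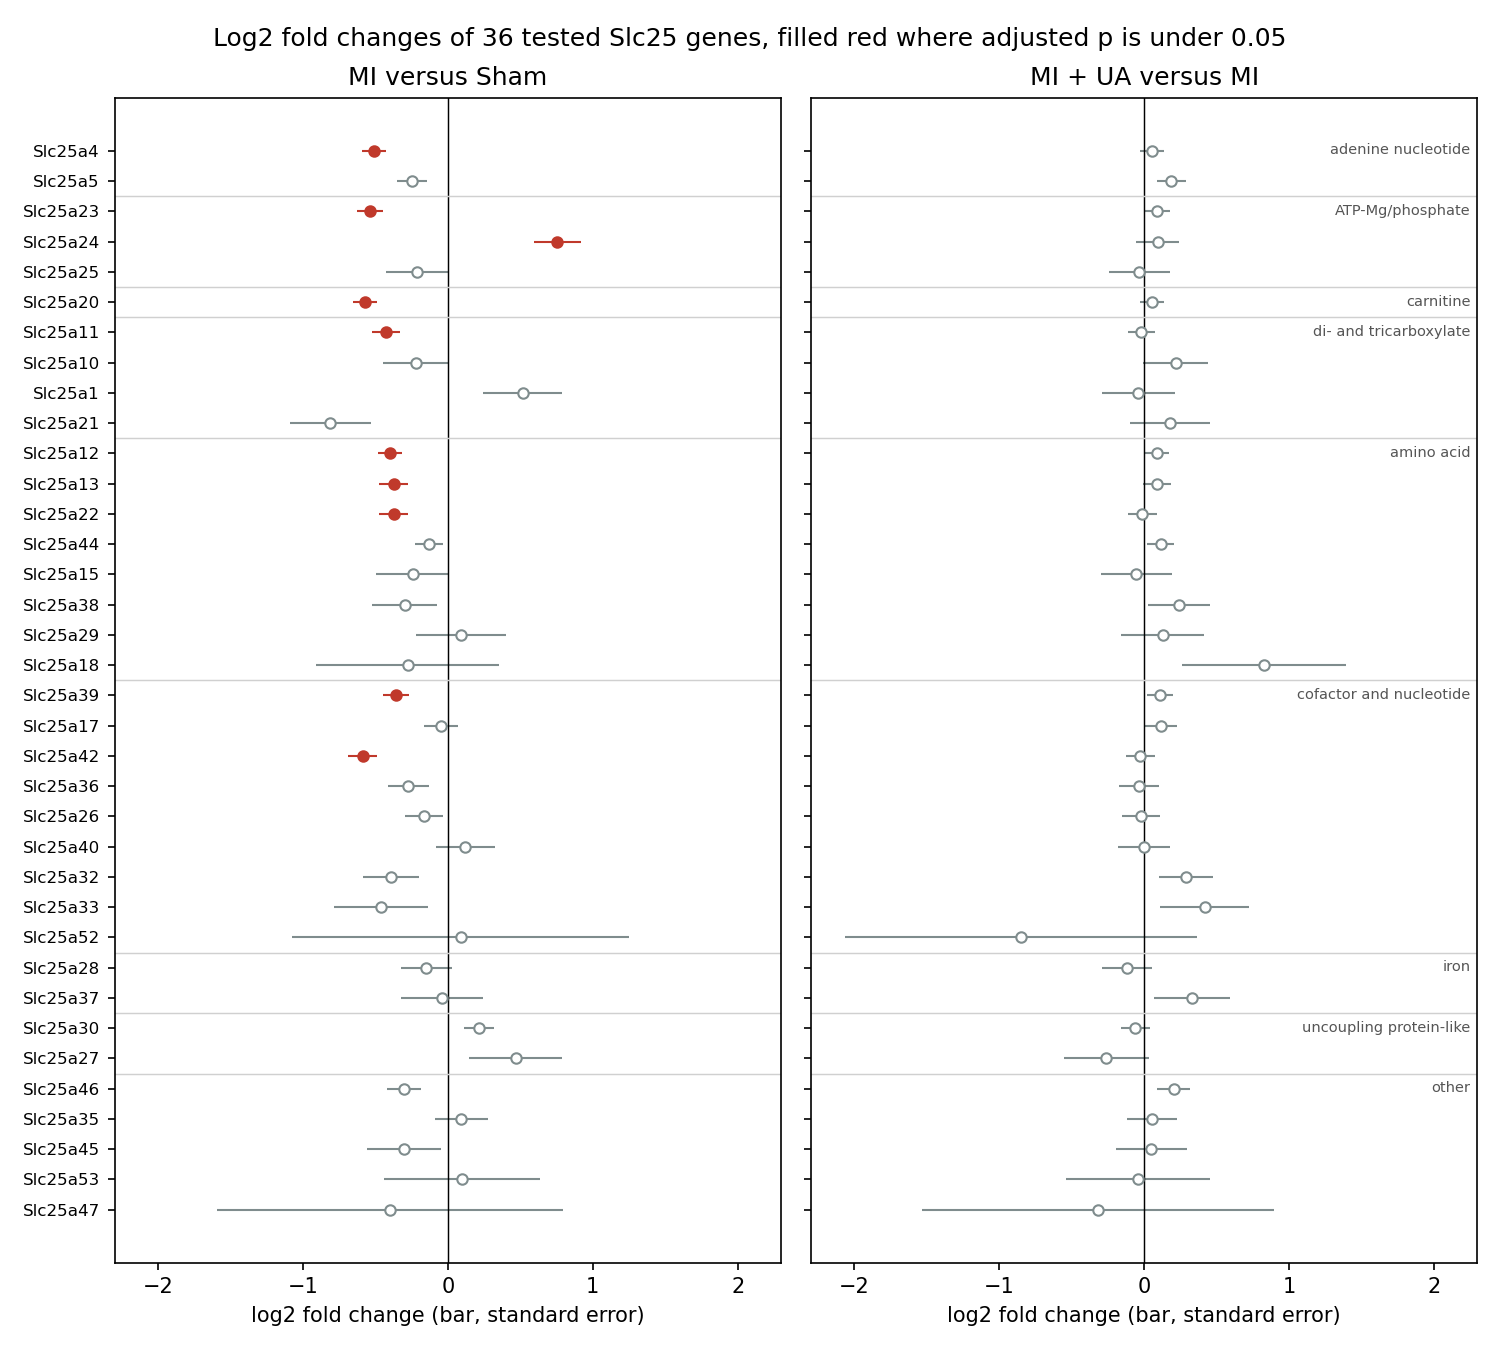
Log2 fold change (x axis) of 36 of the 37 tested Slc25 genes in MI versus Sham (left) and MI + UA versus MI (right), grouped by what they carry and ordered within a group by total counts, with bars of 1 standard error and filled red points where the edgeR adjusted p is under 0.05. On the left 9 points are filled below 0 and 1 above; on the right none is filled, and the widest bars belong to genes with few counts.

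The genes that work with the carriers were lower at 15 of 23 tested and higher at 0 in MI versus Sham, where 5.53% of all genes, and 18.7% of those with an average log2 CPM of at least 5, were lower. Their median was -0.39 on the log2 scale. These were all 4 enzymes of the carnitine shuttle, all 4 of the malate-aspartate shuttle, the outer membrane channels Vdac1, Vdac2 and Vdac3 (-0.39, -0.30 and -0.37), the pyruvate carrier subunits Mpc1 and Mpc2 (-0.36 and -0.34), the mitochondrial creatine kinase Ckmt2 (-0.63), which takes up the exported ATP, and the calcium uniporter subunit Smdt1 (-0.54). The pore subunit Mcu lay at 0.01. Of the 4 genes that import carrier proteins, Tomm70, Timm22, Timm9 and Timm10, 0 were called, with log2 fold changes from -0.59 to -0.01.

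Markers of heart cell types moved with these results. All 11 tested cardiomyocyte markers were lower in MI (median -0.45 on the log2 scale), and their summed level was 50252 to 56443 CPM in Sham, 34592 to 40719 CPM in MI and 36710 to 48381 CPM in MI + UA (36710 to 40310 CPM without rat 66). None of them was at 0 in a library, as the heart label implies. Fibroblast markers were higher at 6 of 8, macrophage markers at 6 of 7 and smooth muscle markers at 3 of 4, and 1 of 6 endothelial markers was lower. Of 5 adipocyte markers 3 were tested and 0 were called (Adipoq was at 0 in all Sham rats). MI rat 36 alone held 29 of the 35 counts of Adipoq and 16 of the 36 of Plin1. Of the brown fat markers Cidea was lower (-0.46), but Ucp1 had 6 counts in all and was not tested. Reads on genes, as a share of reads on genes, in no feature or in ambiguous places, were also lower in MI (47.6% to 49.8%) than in Sham (50.4% to 53.4%), with 46.2% to 50.8% in MI + UA, and the part of this share in the results was not tested. Fewer cells of a type and less RNA per cell cannot be told apart in these bulk samples.

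With libraries scaled to equal levels of the cardiomyocyte markers, 0 carriers were lower in MI versus Sham and 9 were higher, where 0.203% of all genes were lower and 45.4% higher, and only Slc25a24 was called in the same direction under both scalings. This scaling moved the median of all genes to 0.53 on the log2 scale and that of the carriers to 0.26. It added nearly the same amount to the log2 fold change of every gene. The repeated call of Slc25a24 as higher therefore followed from the first scaling and is no separate support. Slc25a4 then lay at 0.01, Slc25a20 at -0.06, Slc25a23 at -0.03, Slc25a42 at -0.08, Slc25a11 at 0.09 and Slc25a12 at 0.11. Slc25a24 lay at 1.28 (edgeR adjusted p = 2.56e-05) and Slc25a30 at 0.72 (2.96e-05). Slc25a13, Slc25a22 and Slc25a39 lay at 0.13, 0.14 and 0.15, and 0 of these 9 carriers were called.

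**Figure D4:**
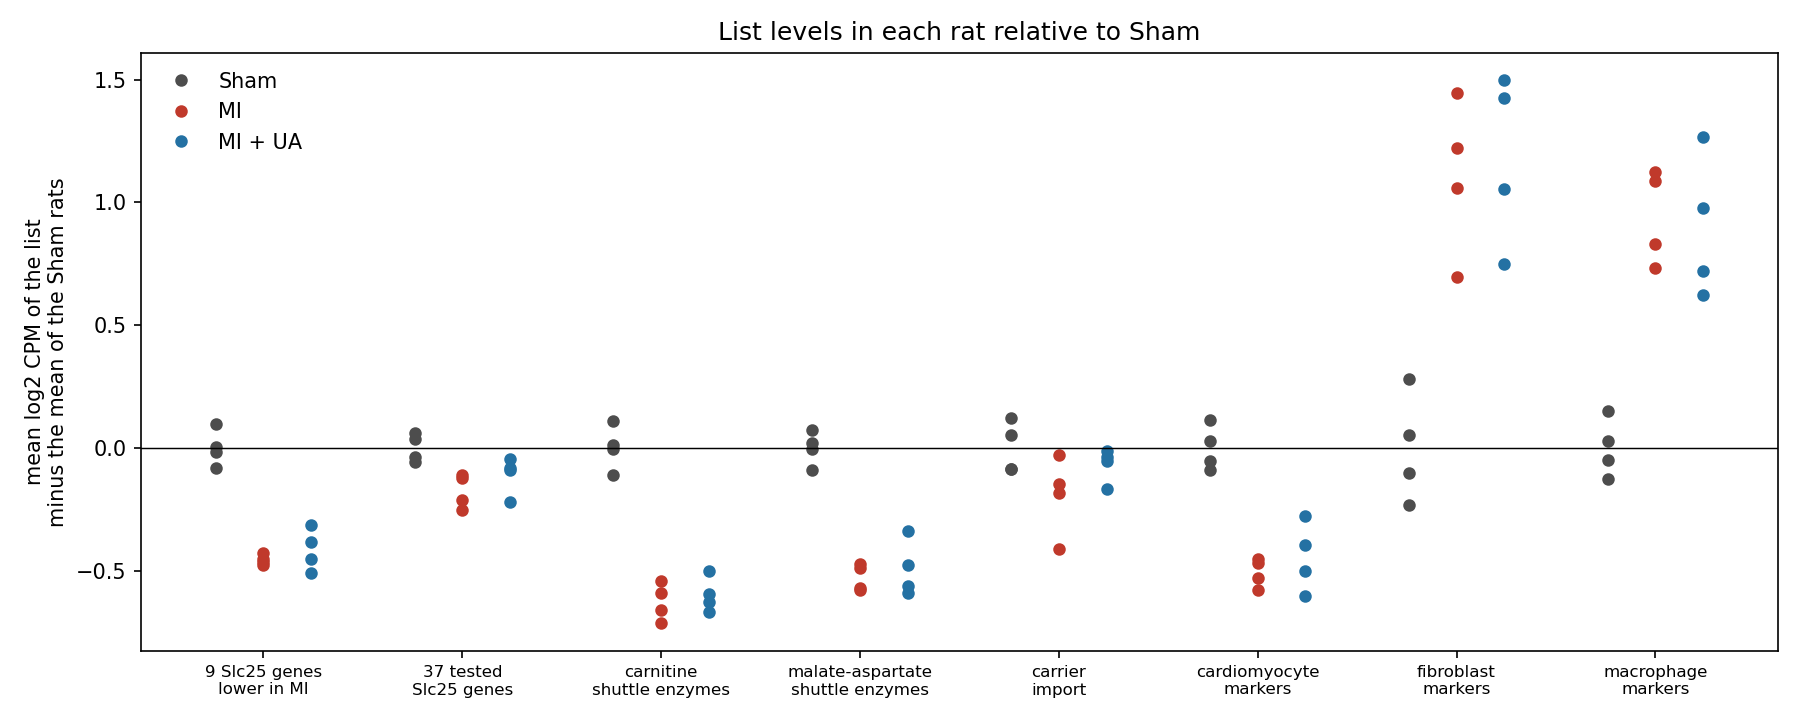
Mean log2 CPM of each gene list in each rat minus the mean of the 4 Sham rats (y axis), with 1 point per rat coloured by group. The 9 carriers called lower in MI, which were chosen by that comparison, lie between -0.48 and -0.43 in the MI rats and the cardiomyocyte markers between -0.58 and -0.45, while fibroblast and macrophage markers lie above 0 in all infarcted rats.

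The second comparison, MI + UA against MI, asked whether UA treatment moved the carriers in infarcted hearts. In edgeR's test 0 of the 37 carriers had an adjusted p under 0.05, 0 had an unadjusted p under 0.05, and DESeq2 also called 0. Of all genes tested 0% passed the adjusted threshold and 3.79% had an unadjusted p under 0.05. The median log2 fold change of the carriers was 0.05, with 21 above and 16 below 0. The carrier ranked first was Slc25a5, at 0.19 on the log2 scale (standard error 0.10, unadjusted edgeR value 0.0776), followed by Slc25a46, which shapes mitochondria, at 0.20 (standard error 0.11, unadjusted value 0.0912). Without rat 66, Slc25a5 lay at 0.24 with an unadjusted value of 0.0356, the 1 carrier then under 0.05 before adjustment, and 0 carriers passed after it. The MI + UA and MI rats did not overlap at 1 carrier, Slc25a33, at 1.97 to 2.18 CPM against 0.83 to 1.88 CPM, while 2.34% of all genes did not overlap.

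For the carriers that were lower after infarction, no difference between MI + UA and MI reached an unadjusted p under 0.05. The 9 had log2 fold changes from -0.03 to 0.11 in MI + UA versus MI, with standard errors of 0.08 to 0.10, 6 above and 3 below 0. Slc25a4 lay at 0.05 and Slc25a20 at 0.06, and without rat 66 both lay just below 0 (-0.0029 and -0.0049). Slc25a24 lay at 0.09 (standard error 0.15). Among the 23 partner genes 0 passed the adjusted threshold, and 2 were under 0.05 before adjustment, Ckmt2 at 0.18 on the log2 scale (unadjusted value 0.0438) and Smdt1 at 0.33 (0.0489). Without rat 66 Ckmt2 lay at 0.11 (unadjusted value 0.182) and Smdt1 at 0.40 (0.0294). These tests do not show that treated and untreated infarcted rats had equal levels.

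MI + UA against Sham shares its Sham rats with the first comparison and its MI + UA rats with the second. Here 7 carriers were lower (4.27% of all genes) and 1 was higher (5.16%), and the groups did not overlap at 9 carriers (14.3% of all genes). All 7 have an average log2 CPM of at least 5, as do 8 of the 9. At that level 15.3% of genes were lower and 28.8% did not overlap. Slc25a42 lay at -0.61, Slc25a20 at -0.51, Slc25a4 at -0.45, Slc25a23 at -0.45, Slc25a11 at -0.45, Slc25a22 at -0.39 and Slc25a12 at -0.31, and Slc25a24 at 0.85. Slc25a39 and Slc25a13 lay at -0.25 and -0.29 without a call (edgeR adjusted p = 0.0879 and 0.0728). Slc25a13 was called by DESeq2 (adjusted p = 0.0455) and by edgeR on only the 2 groups compared (0.0428), and Slc25a39 by edgeR without MI + UA rat 29 (0.0478). Without rat 66 there were again 7 lower and 1 higher. Slc25a12 lost its call without Sham rat 17 or 38 or MI + UA rat 58, and Slc25a22 without Sham rat 38 or MI + UA rat 29 or 58. Scaled to the cardiomyocyte markers, 0 carriers were lower and 8 were higher, where 0.181% of all genes were lower and 37.4% higher. Slc25a24 was again the carrier called in the same direction under both scalings, which followed from the near-uniform shift of all genes.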

How the data were processed

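The authors depleted ribosomal RNA, made strand-specific libraries, mapped read pairs to mRatBN7.2 with STAR 2.6.1c and deposited unnormalized htseq-count counts per Ensembl gene; whether counting used strand is not given in the sources used here. The sample label names polyA RNA, and a further MI + UA library, which the authors set aside as an outlier, was not analysed here. A sum of at least 10 counts over the libraries was required for testing with edgeR 4.0.16 (R 4.3.3; TMM, quasi-likelihood test, all 3 groups in one fit, Benjamini-Hochberg adjustment over 18182 genes). DESeq2 1.42.0, other scalings and filters, and leaving out each rat were alternatives. Paralog ratios used counts plus 1 and exact permutation over rats. On simulated counts for MI versus Sham (17865 genes), 100 genes were changed by 0.5 and 100 by 1 on the log2 scale. Of these, 24% and 89% were recovered, and 7 of 17665 unchanged genes were called. In the data 2064 genes were called, so the setting differs. These shares are not for the carriers, whose own detection was not tested. Values per rat are given for the ADP/ATP, acylcarnitine, 2-oxoglutarate/malate and aspartate/glutamate carriers, for the 8 falls and up to 8 rises with the lowest p in MI versus Sham, for any unadjusted p under 0.05 in MI + UA versus MI, and for the 3 with the highest CPM; others are given by fold change. The members and lists were chosen with earlier results of these data known. Promoter windows are RefSeq's (GRCr8), matched by symbol for 35 of 43 members. Figures used matplotlib 3.10.9. P-values measure the spread between rats. The values of 1 tested member are not reported here by name.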

Additional observations from a re-analysis of the deposited data

Results flagged for a closer look

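In 2 of the 42 groups of 4 rats examined, for the named carriers and other measures, 1 rat stood apart by Dixon's ratio, where chance gives 2.1. This ratio is the gap to the nearest neighbour over the group's range, with a critical value of 0.829. Both were for Slc25a20 on the log2 scale: Sham rat 17 was the lowest of its group at 122 CPM (ratio 0.836), and MI rat 36 was the lowest of its group at 79.9 CPM (ratio 0.887). The log2 fold change of Slc25a20 in MI versus Sham stayed between -0.60 and -0.53 whichever rat was left out.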

How the results depend on the processing

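With DESeq2, its size factors in edgeR, TMM without the mitochondrially encoded genes, no filter, filterByExpr or only the 2 groups compared, 9 or 10 carriers were lower and 1 higher in MI versus Sham, and 7 or 8 lower and 1 higher in MI + UA versus Sham. Scaling to cardiomyocyte markers moved the median log2 fold change of the carriers in MI versus Sham to 0.265 and turned the split of calls to 9 higher and 0 lower, while 45.4% of all genes were then called higher and 0.203% lower. Leaving out each rat gave 9 to 11 called carriers in MI versus Sham, 6 to 8 in MI + UA versus Sham and 0 in MI + UA versus MI. In MI + UA versus MI, 1 carrier came under an unadjusted 0.05 in 5 of these fits: Slc25a17 without MI rat 57, Slc25a46 without MI rat 89 or MI + UA rat 64, Slc25a18 without MI + UA rat 58 and Slc25a5 without MI + UA rat 66, named here after their values were seen. In MI + UA versus MI it moved the log2 fold change of Slc25a4 between -0.0029 and 0.086, of Slc25a20 between -0.0049 and 0.10, of Slc25a11 between -0.045 and 0.017 and of Slc25a42 between -0.10 and 0.041, so their signs changed. The difference in log2 ratio of Slc25a12 to Slc25a13 changed sign as well, from -0.097 to 0.066 in MI versus Sham, -0.095 to 0.068 in MI + UA versus MI and -0.091 to 0.041 in MI + UA versus Sham. The 25 of 37 carriers with an average log2 CPM under 5 had wider standard errors in MI versus Sham (median 0.23 against 0.10), and detection at their depth was not tested. No paired analysis was possible because the groups share no rat number.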
